A study of Mus musculus with 12 samples.

Results

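The *Serpina3* cluster is a run of neighbouring genes on mouse chromosome 12 that encode serpins of clade A. Its members were selected on measured values: they are all genes whose name starts with Serpina3 and whose normalized count was above 0 in any library, which gave 10 genes of 28995 in all. They are *Serpina3b*, *Serpina3c*, *Serpina3d-ps*, *Serpina3e-ps*, *Serpina3f*, *Serpina3g*, *Serpina3h*, *Serpina3i*, *Serpina3m* and *Serpina3n*, in the order of their starts. Of these, 7 are annotated as protein-coding and 3, *Serpina3d-ps*, *Serpina3e-ps* and *Serpina3h*, as pseudogenes. No other *Serpina3* gene had a row in the tables used here, so no gene lay just outside the rule. Just inside it were *Serpina3b*, with 6 reads over the 12 libraries, *Serpina3d-ps* with 7 and *Serpina3e-ps* with 9.

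The libraries came from primary fibroblasts of the hindlimb skeletal muscle of 3-day-old wild-type C57/BL10 mice. Cells of each of 2 mice were pooled by mouse, re-plated on 2 plates for each treatment, and kept in steroid-stripped serum from the day before treatment. For 48 hours the plates received 1 µM aldosterone, an agonist of the mineralocorticoid receptor, 1 µM spironolactone, an antagonist of that receptor, or the DMSO vehicle. RNA selected for poly(A) was sequenced from 4 plates per treatment, 12 libraries in all. The 4 libraries of a group therefore come from 2 mice, and p-values measure the spread between these plates.

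Serpins are inhibitors that offer a protease an exposed bait, the reactive centre loop. When the protease cuts the loop, the serpin changes shape and holds the enzyme in a stable complex. Mice have a family of *Serpina3* genes where humans have the gene for alpha-1-antichymotrypsin, an acute phase protein of the liver and of inflamed tissue. *Serpina3n* is the member best known as a secreted inhibitor of leukocyte proteases, and *Serpina3g* is known as an inhibitor of lysosomal cathepsins inside leukocytes.

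In vehicle-treated fibroblasts *Serpina3n* was the most abundant transcript of the cluster per kilobase, and *Serpina3m* was not detected in any library. With aldosterone, *Serpina3n* was 13.9-fold, *Serpina3c* 5.47-fold and *Serpina3f* 3.40-fold higher than with vehicle, and *Serpina3m* reached 10.2 to 13.2 CPM (read counts scaled to a common library total). *Serpina3g* and the pseudogene *Serpina3h*, which lie between *Serpina3f* and *Serpina3m*, did not pass the test. With spironolactone, no member with reads in every library differed from vehicle by the test. The size of these changes and the sequences of the genes are given in turn.

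The sequences just upstream of the transcription start are shown first, because *Serpina3n* and *Serpina3c*, the 2 members that rose most among those with reads in every vehicle library, were the most alike there. RefSeq promoters (GRCm38.p6) were found for 6 of the 10 members and none for *Serpina3m*. Capitals mark the letters AGAACA, a core of the DNA sites bound by steroid receptors, in the 250 bases before the start, read 5′ to 3′ on the strand of the gene.
*Serpina3n*, chr12:104406458-104406707, plus strand: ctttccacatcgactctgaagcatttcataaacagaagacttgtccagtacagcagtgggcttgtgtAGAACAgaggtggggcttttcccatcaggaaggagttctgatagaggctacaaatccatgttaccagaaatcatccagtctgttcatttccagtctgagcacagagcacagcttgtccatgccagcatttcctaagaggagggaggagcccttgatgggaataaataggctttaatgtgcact
*Serpina3c*, chr12:104153873-104154122, minus strand: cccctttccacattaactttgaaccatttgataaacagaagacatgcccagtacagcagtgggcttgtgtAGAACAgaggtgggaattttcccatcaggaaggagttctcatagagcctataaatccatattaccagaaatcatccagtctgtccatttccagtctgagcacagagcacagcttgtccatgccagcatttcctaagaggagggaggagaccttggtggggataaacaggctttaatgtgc

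These 2 stretches were 90.5% identical over 253 aligned positions, while the next closest pair among the members, *Serpina3b* and *Serpina3n*, was 69.0% identical. AGAACA began 183 bases before the start in *Serpina3n* and 180 bases before it in *Serpina3c*, inside a shared run of bases. The same 70-base stretch of *Serpina3n* was aligned to the other promoters, to show whether the letters stand at the same place. In the windows of the members below, AGAACA is again in capitals where it occurs.
*Serpina3b*, chr12:104127791-104127862, plus strand: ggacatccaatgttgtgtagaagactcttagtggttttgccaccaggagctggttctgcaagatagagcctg
*Serpina3f*, chr12:104214337-104214405, plus strand: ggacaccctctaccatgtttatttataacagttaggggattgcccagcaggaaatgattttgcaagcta
*Serpina3g*, chr12:104236030-104236103, plus strand: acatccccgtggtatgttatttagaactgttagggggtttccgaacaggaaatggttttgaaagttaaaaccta
*Serpina3i*, chr12:104262936-104263005, plus strand: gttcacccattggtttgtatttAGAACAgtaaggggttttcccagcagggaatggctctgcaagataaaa

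The windows of *Serpina3b*, *Serpina3g* and the first of the 2 RefSeq starts of *Serpina3f*, shown here, held no AGAACA. That of *Serpina3i*, a gene with 1 to 7 reads per library, did. The window at the second start of *Serpina3f*, not shown, also did, but it covers another stretch, chr12:104214526-104214599. Elsewhere in its promoter, *Serpina3b* held AGAACA 81 bases before the start. The AGAACA of *Serpina3f* is a single site, 94 bases before its second start and 5 bases before its first. On either strand, AGAACA occurred in 19.0% of the 32851 promoters in the RefSeq table, which run from 250 bases before the start to 50 after it, so the letters are common. No member promoter held the inverted repeat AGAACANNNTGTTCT, nor a form of it with 2 mismatches or fewer, which occurred in 1.84% of all promoters. The STAT motif TTCNNNGAA, found in 8.30% of all promoters, occurred in those of *Serpina3f*, *Serpina3g* and *Serpina3i* and not in those of *Serpina3n*, *Serpina3c* or *Serpina3b*. TATAAA, in 13.6% of all promoters, occurred in *Serpina3b* 28 bases before the start, in *Serpina3c* 132 bases before it, and in 1 of the 2 *Serpina3f* promoters. Such matches describe the letters in these windows, and binding was not measured here.

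Serpins differ in the loop that meets the protease, so the coding bases of the loop are shown next. They were read from the GENCODE vM1 transcripts (NCBIM37), 5′ to 3′, and lie in the last of 4 coding exons in each gene shown. The hinge of the loop is in lower case and the bait that follows it is in capitals.
*Serpina3n*, chr12:105651658-105651732, plus strand: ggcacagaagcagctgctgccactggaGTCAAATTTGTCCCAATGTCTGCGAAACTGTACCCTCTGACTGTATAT
*Serpina3m*, chr12:105631979-105632053, plus strand: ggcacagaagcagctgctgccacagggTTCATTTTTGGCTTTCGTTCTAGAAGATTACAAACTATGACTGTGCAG
*Serpina3c*, chr12:105385532-105385597, minus strand: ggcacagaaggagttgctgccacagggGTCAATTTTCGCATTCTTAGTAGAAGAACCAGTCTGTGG
*Serpina3f*, chr12:105458455-105458532, plus strand: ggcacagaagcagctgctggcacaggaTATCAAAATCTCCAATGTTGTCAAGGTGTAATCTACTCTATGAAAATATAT
*Serpina3g*, chr12:105479282-105479356, plus strand: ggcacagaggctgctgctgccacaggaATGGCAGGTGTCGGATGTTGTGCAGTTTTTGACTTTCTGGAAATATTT
*Serpina3i*, chr12:105506690-105506764, plus strand: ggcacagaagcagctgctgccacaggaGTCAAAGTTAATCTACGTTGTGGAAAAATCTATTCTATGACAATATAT

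Over the 27 bases of the hinge, compared without gaps, pairs of these genes were between 81.5% and 96.3% identical. The loop was located by a fixed peptide motif at the start of the hinge, so part of this likeness is built in. The search found no loop in *Serpina3b*, which is not shown. Over the bait, aligned with gaps, identity was between 42.0% and 67.3%. *Serpina3n* and *Serpina3m*, for example, shared 92.6% of the hinge and 52.1% of the bait, and their whole coding sequences were 85.2% identical. *Serpina3m* and *Serpina3c* were 88.7% identical in coding sequence and 62.5% in the bait. The members whose RNA was higher with aldosterone thus encode different baits, and which proteases they met was not measured.

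Near-identical neighbours can share reads, and this limits each gene's count. Of all 100-base stretches of the *Serpina3m* transcript, 6.09% also occurred in *Serpina3k*, a neighbour that is not among the members, and at 150 bases 0.331% did. No 100-base stretch of *Serpina3c* and 1 of 1965 of *Serpina3n* occurred in the protein-coding transcript of another *Serpina3* gene, with 1 transcript compared per gene. For *Serpina3f* it was 33 of 2149, for *Serpina3g* 37 of 1704 and for *Serpina3i* 49 of 2101. The pseudogenes, among them *Serpina3h*, were not compared. In the tables *Serpina3m* spans 55772 bases, against 7103 bases in RefSeq, where 55774 bases reach from the start of *Serpina3k* to the end of *Serpina3m*. The summed exon length of *Serpina3m* in the tables, 1719 bases, is near the 1659 bases of its own transcript, and how many counted reads the 2 genes share was not tested. Reads of *Serpina3n* were not counted as *Serpina3m* at any visible rate, since vehicle libraries held 304 to 436 reads of *Serpina3n* and 0 of *Serpina3m*.

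The libraries held 19136923 to 30219185 counted reads, and 3 reads in a library were taken as the floor of detection. Levels below are CPM computed from the library totals after trimmed mean of M values (TMM) scaling, and fold changes in CPM are ratios of group means. The labelled cell type was checked against 6 fibroblast markers, which summed to 37955 to 42049 CPM with vehicle, 31119 to 35216 with aldosterone and 34784 to 39467 with spironolactone. These sums are mostly *Col1a1* and *Col1a2*, and the marker *Pdgfra* went the other way, from 132 ± 8.42 CPM with vehicle to 249 ± 13.5 with aldosterone (log2 difference 0.91, adjusted p = 2.93e-08 by limma). It was at 123 ± 5.64 CPM with spironolactone, and was called higher with aldosterone than there. Markers of other cells were low in all groups. Of 4 hepatocyte markers, the defining genes of the cell type best known for this family, 2 were measured and summed to 0.0875 CPM at most. Markers of macrophages, 4 of 5 measured, summed to 2.54 to 3.89 CPM, and those of neutrophils and mast cells to 0.270 CPM at most. Summed endothelial markers were 1.40 to 3.72 CPM with vehicle and 4.90 to 10.7 with aldosterone, mostly through *Kdr*. *Cdh5* was at 0.398 and 0.639 CPM and *Pecam1* at 0.275 and 0.120, and neither passed (adjusted p = 0.358 and 0.253 by limma). Summed adipocyte markers were 1.23 to 3.71 CPM with vehicle and 4.58 to 8.30 with aldosterone, mostly through *Plin1*. *Adipoq* was at 1.42 and 2.11 CPM and did not pass (adjusted p = 0.665 by limma). The part of these changes in the results below was not tested, and in bulk RNA fewer cells of a type and less RNA per cell cannot be told apart.

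*Serpina3n* (ENSMUSG00000021091) lies at the downstream end of the cluster, at chr12:104372988-104380588 on the plus strand in the positions of the tables. In the vehicle libraries it was at 15.3, 14.7, 15.5 and 15.3 CPM. In the aldosterone libraries it was at 182, 197, 225 and 242 CPM. In the spironolactone libraries it was at 14.1, 18.2, 15.0 and 17.0 CPM. Every aldosterone library was far above every library of the other groups, and the vehicle and spironolactone libraries overlapped. The means were 15.2 ± 0.363 CPM (SD, n = 4) with vehicle, 211 ± 26.9 with aldosterone and 16.1 ± 1.89 with spironolactone. On log2(normalized count + 1), the scale of all tests here, the difference from vehicle was 3.78 ± 0.08 (SE), with an adjusted p of 6.48e-15 by limma. Against spironolactone it was 3.71, with an adjusted p of 1.32e-14 by limma.

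By CPM per kb, *Serpina3n* thereby moved from rank 5526 of 28995 genes with vehicle to rank 394 with aldosterone. Libraries carry a sample number of 1 or 2, and the fold over vehicle was 12.6 in sample number 1 and 15.2 in sample number 2. The difference between the numbers was 0.25 on the log2 scale and did not pass (limma interaction term, adjusted p = 0.895).

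*Serpina3m* (ENSMUSG00000079012), the next gene upstream, had no read in any of the 4 vehicle libraries. With aldosterone it had 189, 312, 323 and 395 reads, or 10.2, 12.6, 12.5 and 13.2 CPM. With spironolactone it had 0, 2, 0 and 1 reads. The aldosterone libraries stood apart from all others, among which *Serpina3m* stayed at or under the floor. Its mean with aldosterone was 12.1 ± 1.32 CPM (SD, n = 4). Set against the floor of 3 reads in each vehicle library, this is at least 93.9-fold higher, and no test is given, because the gene entered the rule only through the treated groups. Against spironolactone the ratio of summed reads per summed library total was 408. Its exact 95% interval of 139 to 1980 covers counting error only.

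*Serpina3c* (ENSMUSG00000066361), on the minus strand at chr12:104112641-104120129, lies near the other end of the cluster, 260 kb from *Serpina3n*. In the vehicle libraries it was at 4.01, 3.81, 3.51 and 2.99 CPM. In the aldosterone libraries it was at 21.4, 17.8, 18.2 and 20.9 CPM. In the spironolactone libraries it was at 4.25, 4.21, 2.83 and 3.78 CPM. As with *Serpina3n*, only the aldosterone libraries stood apart, and the 2 other groups overlapped. Means were 3.58 ± 0.443 CPM (SD, n = 4) with vehicle, 19.6 ± 1.83 with aldosterone and 3.77 ± 0.658 with spironolactone. The log2 difference between aldosterone and vehicle was 2.44 ± 0.12 (SE), with an adjusted p of 4.51e-10 by limma, and against spironolactone it was 2.38, with an adjusted p of 9.39e-10 by limma.

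*Serpina3f* (ENSMUSG00000066363) was counted from few reads. It had 5, 4, 8 and 13 reads in the vehicle libraries. It had 21, 18, 22 and 55 reads in the aldosterone libraries. It had 9, 10, 9 and 12 reads in the spironolactone libraries. The lowest aldosterone library still exceeded the highest library of the other groups in CPM, at 0.730 against 0.589. Means were 0.334 ± 0.204 CPM (SD, n = 4) with vehicle and 1.14 ± 0.494 with aldosterone. The log2 difference was 1.72 ± 0.44 (SE) against vehicle, with an adjusted p of 0.0175 by limma, and 1.32 against spironolactone, with an adjusted p of 0.0267. These calls rest on single libraries. The adjusted p against vehicle was 0.0775 by limma without aldosterone replicate 4, 0.0514 without vehicle replicate 1 and 0.0547 without vehicle replicate 2. Against spironolactone the adjusted p was above 0.05 in 5 of the 8 limma fits that left out a library, reaching 0.123 without aldosterone replicate 4 and 0.0619 without aldosterone replicate 1. Without spironolactone replicate 1, 2 or 3 it was 0.0553, 0.0632 and 0.0555 by limma.

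**Figure D1:**
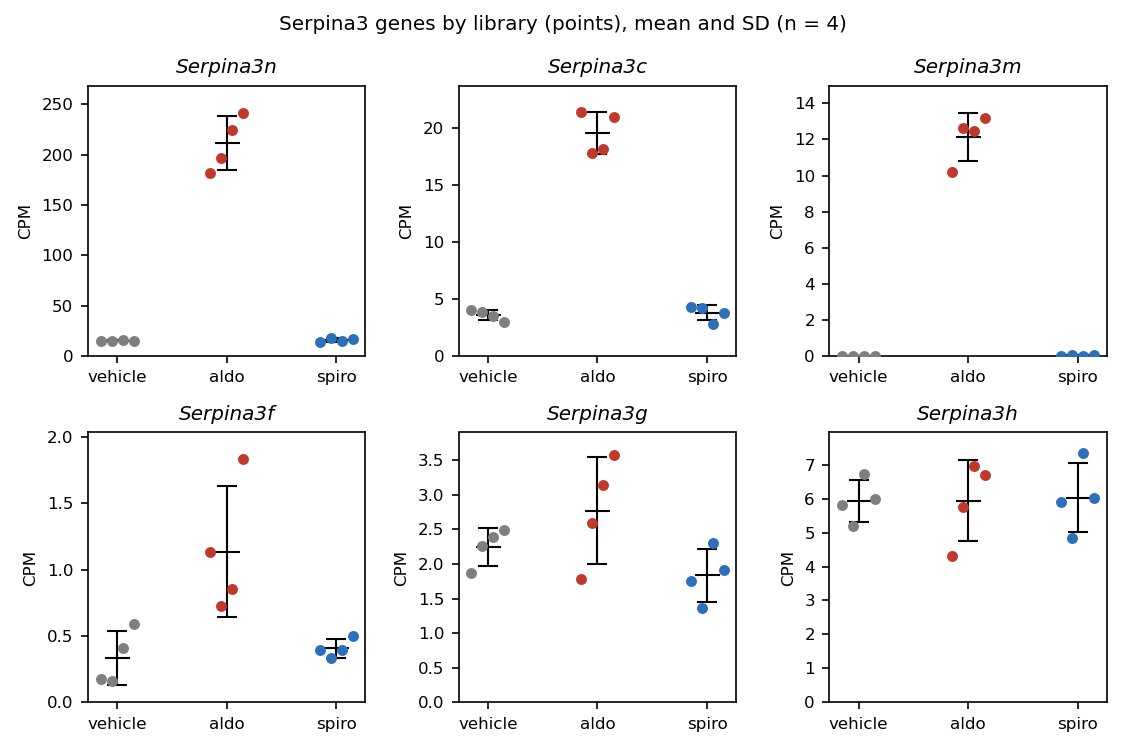
CPM of 6 *Serpina3* genes in each library, with points for libraries and bars for the mean and SD of 4 libraries per group, on axes that start at 0 and differ between genes. The aldosterone points of *Serpina3n*, *Serpina3c* and *Serpina3m* stand apart from all others, at 182 to 242, 17.8 to 21.4 and 10.2 to 13.2 CPM, while those of *Serpina3g* and *Serpina3h* overlap the other groups.

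The other members with reads above the floor gave no call. *Serpina3g* was at 1.86, 2.25, 2.39 and 2.49 CPM with vehicle and at 1.78, 2.59, 3.13 and 3.57 CPM with aldosterone. With spironolactone it was at 1.75, 1.37, 2.30 and 1.91 CPM. These ranges overlap, and the log2 difference between aldosterone and vehicle was 0.25, with a 95% interval of -0.21 to 0.72 and an adjusted p of 0.591 by limma. Against spironolactone it was 0.56, with an interval of 0.06 to 1.06 and an adjusted p of 0.192 by limma.

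*Serpina3h*, annotated as a transcribed unprocessed pseudogene, was at 5.20 to 6.71 CPM with vehicle, 4.31 to 6.96 with aldosterone and 4.84 to 7.34 with spironolactone. Its group means were 5.92, 5.93 and 6.03 CPM, and the groups overlapped. Its log2 difference between aldosterone and vehicle was -0.02, with an interval of -0.34 to 0.30 and an adjusted p of 0.966 by limma, and the 2.44 seen in *Serpina3c* lies outside that interval. *Serpina3i* had 1 to 7 reads in every library, and its interval of -1.28 to 1.29 on the log2 scale leaves a wide range possible. *Serpina3b*, *Serpina3d-ps* and *Serpina3e-ps* had at most 3 reads in any library, so no fold is given for them.

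By the thresholds of the study, an adjusted p of at most 0.05 and a log2 fold change of at least 1 in size, *Serpina3n*, *Serpina3c* and *Serpina3f*, 3 of the 6 members with reads in every library, were called higher with aldosterone than with vehicle and 0 lower. Over all 27319 genes of that table, 1.4% were called higher and 0.666% lower. The same 3 were called higher with aldosterone than with spironolactone, where 1.38% of 27631 genes were higher and 0.521% lower. Both comparisons use the same aldosterone libraries. *Serpina3m* is not counted, because its vehicle and spironolactone groups are at or under the floor. The cluster was picked with such changes known, so these counts describe the members and support nothing further.

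With spironolactone, no member with reads in every library was called against vehicle in either direction. Over all genes, 0% of 27598 were called higher and 0% lower by limma, with 1251 at an unadjusted p under 0.05. DESeq2 and edgeR on the recovered reads called 0 members as well, but these fits did not test every member. Among the members with reads in every library, DESeq2 gave an adjusted p only for *Serpina3n* (0.999). The edgeR filter left out *Serpina3f* and *Serpina3i*. For *Serpina3n* the ratio of mean CPM was 1.06 and for *Serpina3c* 1.05. The log2 difference of *Serpina3n* was 0.07 with a 95% interval of -0.11 to 0.26, and that of *Serpina3c* was 0.06 with an interval of -0.30 to 0.42. Adjusted p-values of the members with reads in every library were 0.934 or higher by limma in this comparison. A difference of the size seen with aldosterone lies outside both intervals.

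**Figure D2:**
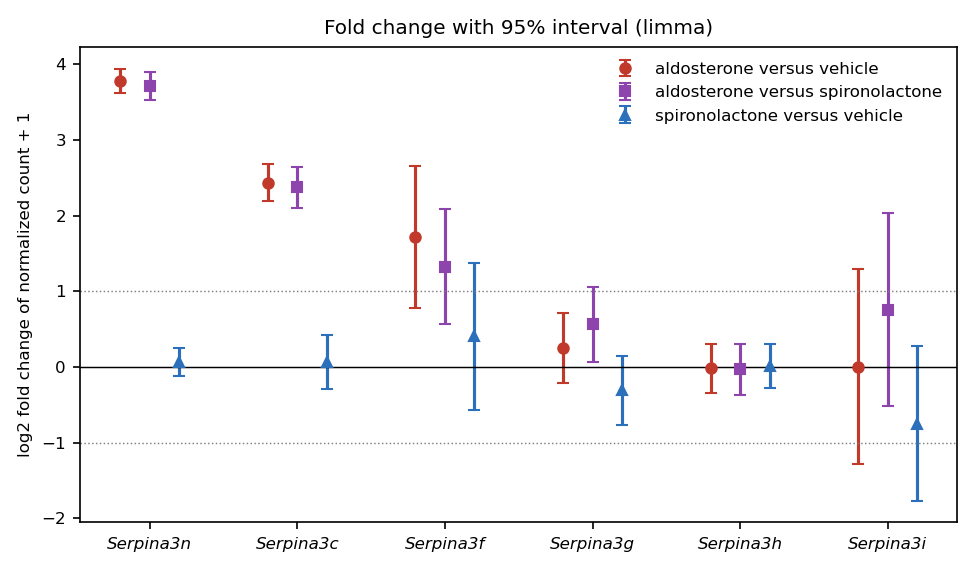
Log2 fold change of normalized count + 1 for the 6 *Serpina3* genes with reads in every library, in 3 comparisons, with bars for the 95% interval by limma and dotted lines at the threshold of 1 in size. *Serpina3n*, *Serpina3c* and *Serpina3f* lie at 3.78, 2.44 and 1.72 for aldosterone against vehicle, and every interval for spironolactone against vehicle spans 0.

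Compared per kilobase of transcript, the order of the members changed with aldosterone. With vehicle, *Serpina3n* led at 7.36 ± 0.18 CPM per kb (SD, n = 4), followed by *Serpina3h* at 1.66 and *Serpina3c* at 1.62, whose libraries overlapped, then *Serpina3g* at 1.07 and *Serpina3f* at 0.146. With aldosterone, *Serpina3n* was at 102 ± 13.0 CPM per kb, *Serpina3c* at 8.84 and *Serpina3m* at 7.05, and no library of one overlapped the next. *Serpina3h* at 1.66 and *Serpina3g* at 1.31 overlapped and came next, above *Serpina3f* at 0.496. With spironolactone the order of these 5 members was that of vehicle except that *Serpina3c*, at 1.70, and *Serpina3h*, at 1.69, changed places within their overlap.

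As a share of the summed CPM per kb of the 10 genes, *Serpina3n* held 61.6% ± 0.694 (SD, n = 4) with vehicle, 83.9% ± 0.950 with aldosterone and 63.0% ± 3.94 with spironolactone. *Serpina3m* held 5.80% with aldosterone, and *Serpina3c* went from 13.6% to 7.32% although its own level rose. Summed over the members, CPM was 27.5 ± 0.974 with vehicle, 253 ± 29.9 with aldosterone and 28.3 ± 1.29 with spironolactone. For each read of *Serpina3c* there were 4.30 ± 0.610 reads of *Serpina3n* with vehicle and 10.9 ± 1.66 with aldosterone, and these ranges, 3.82 to 5.12 and 8.53 to 12.4, did not overlap. Among the aldosterone libraries the reads of *Serpina3n* per read of *Serpina3m* were 15.6 to 18.4.

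**Figure D3:**
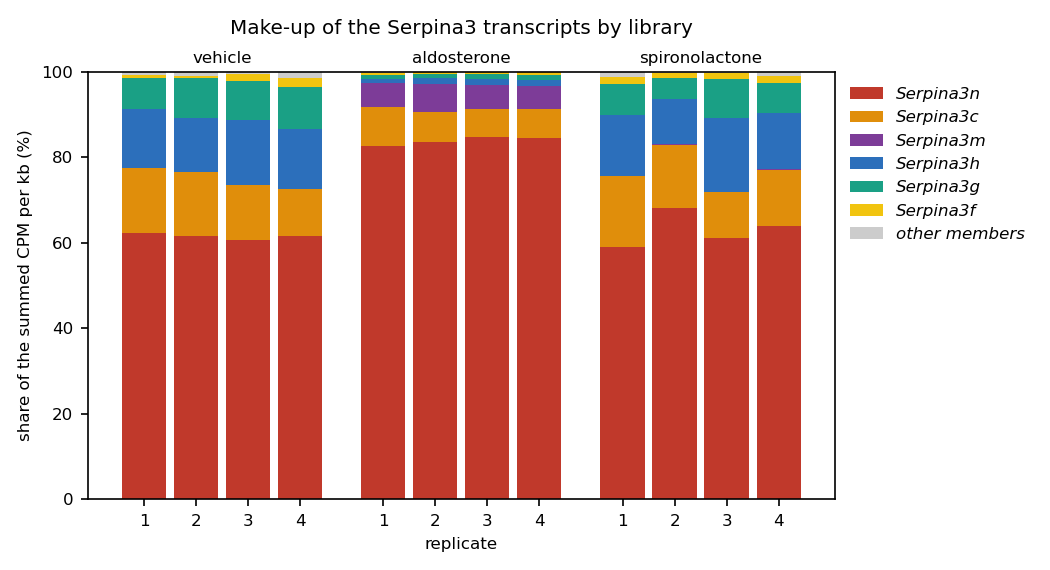
Share (%) of the summed CPM per kb of the *Serpina3* genes held by each gene, as stacked bars for the 12 libraries, with 4 replicates for each of vehicle, aldosterone and spironolactone. *Serpina3n* holds 82.7% to 84.9% in the aldosterone libraries and 60.7% to 62.4% in the vehicle libraries.

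The genes called higher and *Serpina3m*, for which no test is given, were not a single block on the chromosome. In order of start, *Serpina3c*, *Serpina3f*, *Serpina3m* and *Serpina3n* lay 260, 192, 68.2 and 0 kb upstream of the *Serpina3n* start. *Serpina3g*, *Serpina3h* and *Serpina3i*, which were not called, lay between them at 170, 159 and 144 kb. The 5 nearest expressed genes on each side that are no serpins were not called, beside 1.4% of all genes called higher and 0.666% lower. A count of 0 among so few is near that background and is no result about these neighbours. Those before the cluster start 874 to 999 kb from *Serpina3n*. Of the 10 neighbours, *Gm28875*, 519 kb beyond *Serpina3n*, passed on p alone, with a log2 difference of 0.50 and an adjusted p of 4.84e-04 by limma. *Gsc*, a homeobox gene 64.5 kb away and the nearest of them, was at 6.56 CPM with vehicle and 5.94 with aldosterone. The other genes of clade A on the chromosome that had a row in the tables used here were *Serpina6*, *Serpina16*, *Serpina1e*, *Serpina9*, *Serpina12*, *Serpina4-ps1* and *Serpina5*. They had at most 10 reads in any library, and none was called.

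**Figure D4:**
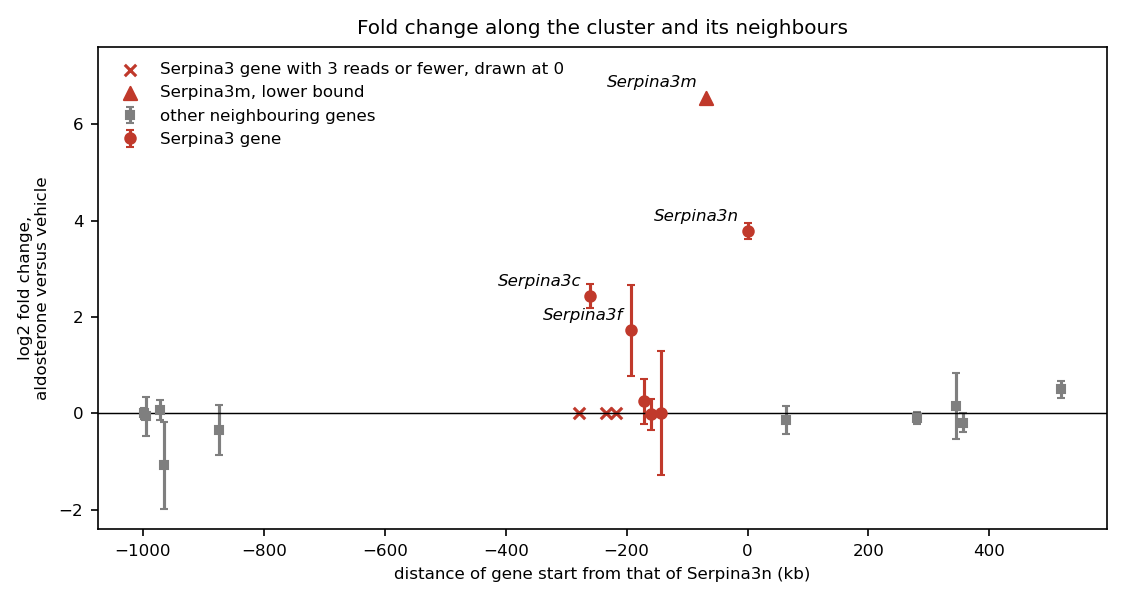
Log2 fold change of aldosterone against vehicle by the distance (kb) of each gene's start from that of *Serpina3n*, with 95% intervals by limma. Red circles are *Serpina3* genes with reads in every library, and the triangle is the lower bound of *Serpina3m* (6.55). Crosses are members with 3 reads or fewer drawn at 0. Grey squares are 10 other neighbours, which lie near 0 apart from *Gm28875* at 0.50 and *Ifi27l2a* at -1.08, which did not pass (adjusted p = 0.138 by limma).

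Of 31 genes outside the cluster named as serpins, 29 were in the table of aldosterone and vehicle and 0 were called in either direction. With 1.4% of all genes called higher and 0.666% lower, a count of 0 among 29 is near the background and is no result about these serpins, and their median log2 difference was -0.09, against -0.01 over all genes. *Serpinb6a*, an intracellular inhibitor, was at 218 ± 20.5 CPM with vehicle and 318 ± 13.7 with aldosterone (log2 difference 0.54, adjusted p = 3.18e-05 by limma). *Serping1*, the inhibitor of complement C1, was at 31.9 ± 2.78 and 49.3 ± 1.79 CPM (0.62 on the log2 scale, adjusted p = 1.07e-05 by limma). *Serpinb1a* was lower, by -0.58 on the log2 scale, and *Serpinh1*, the collagen chaperone and the most abundant serpin here, by -0.21 (adjusted p = 0.000219 and 0.0446 by limma). Of 7 proteases listed as possible targets, 3 were in the table. These were *Cma1*, *Prtn3* and *Mmp9*, with at most 7, 5 and 3 reads in any of the 12 libraries.

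Of 23 other acute phase genes listed, 18 were measured, 9 were called higher with aldosterone than with vehicle and 0 lower, beside 1.4% and 0.666% of all genes, and their median log2 difference was 0.78. *Lcn2*, the iron-siderophore binding lipocalin, was at 3.19 ± 0.315 CPM with vehicle and 34.0 ± 4.33 with aldosterone, and *Hp*, haptoglobin, at 5.13 ± 1.87 and 43.6 ± 11.4. *Cebpd*, a transcription factor of the acute phase response, was at 48.8 ± 6.01 and 135 ± 20.2 CPM. The others called were *Orm1*, *Orm2*, *Saa3*, *Il6ra*, *Lbp* and *Cp*, with log2 differences from 1.17 to 3.18. Of these, *Orm1* and *Orm2*, near-identical copies, had at most 4 reads in any vehicle library. In any aldosterone library they had at most 15 and 8 reads. Against spironolactone, 8 of 19 measured genes of the list were called higher and 0 lower, beside 1.38% and 0.521% of all genes. *Orm2* did not pass there (adjusted p = 0.319 by limma). *Stat3*, which carries the signal of interleukin 6, was at 184 ± 7.45 and 200 ± 14.1 CPM and *Socs3*, its feedback inhibitor, at 16.0 ± 3.53 and 19.1 ± 4.23, and neither passed (adjusted p = 0.322 and 0.401 by limma). *Il6* itself was at 0.618 CPM with vehicle and 0.238 with aldosterone and did not pass (adjusted p = 0.176 by limma). *Cebpb* passed on p alone, at 75.8 ± 5.64 CPM with vehicle and 91.6 ± 5.99 with aldosterone (log2 difference 0.27, adjusted p = 0.0149 by limma). *Il6st* and *Osmr* did not pass (adjusted p = 0.393 and 0.562 by limma).

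Of 12 genes listed as steroid receptors and their known targets, 8 were called higher with aldosterone than with vehicle and 0 lower, beside 1.4% and 0.666% of all genes, with a median log2 difference of 1.67. *Fkbp5*, a co-chaperone of steroid receptors, was at 13.8 ± 1.58 CPM with vehicle and 266 ± 18.3 with aldosterone. *Tsc22d3*, the leucine zipper induced by glucocorticoids, was at 82.1 ± 1.61 and 532 ± 23.3 CPM. The transcription factor gene *Zbtb16* was at 0.300 ± 0.162 and 32.0 ± 4.34 CPM. *Sgk1*, *Per1*, *Errfi1*, *Klf9* and *Hsd11b2* were the others called, from 1.13 to 2.54 on the log2 scale. The receptors differed greatly in level: *Nr3c1*, the glucocorticoid receptor, was at 121 ± 5.34 CPM with vehicle and 91.3 ± 3.16 with aldosterone (adjusted p = 6.48e-05 by limma), and *Nr3c2*, the mineralocorticoid receptor, at 1.57 ± 0.872 and 0.611 ± 0.250 (adjusted p = 0.0853). Which receptor acted on the *Serpina3* genes was not tested, as no library combined aldosterone with spironolactone.

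**Figure D5:**
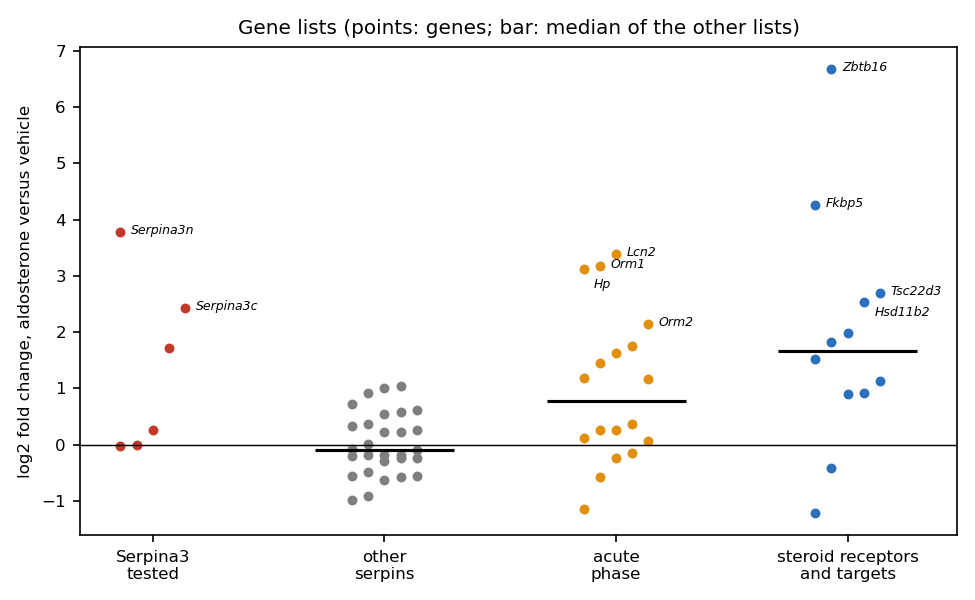
Log2 fold change of aldosterone against vehicle for single genes (points) of the *Serpina3* cluster, the other serpins, the acute phase list and the list of steroid receptors and targets, with the median of each of the last 3 lists as a bar (-0.09, 0.78 and 1.67). *Serpina3m* is not drawn, since it had no vehicle reads.

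The genes whose pattern was most like that of a member were found by the root mean square difference of log2 CPM over the 12 libraries, each gene centred on its vehicle mean. For *Serpina3n* they were *Ndrg2*, *Lcn2*, *Map7d2*, *Ace* and *Fkbp5*, at 0.22 to 0.38. For *Serpina3c* they were *Xdh*, *Tsc22d3*, *Fabp4*, *Mt1* and *Pdk4*, at 0.16 to 0.27, so *Serpina3c* ran closest to *Xdh*, the gene of xanthine dehydrogenase, at 8.63 CPM with vehicle and 47.1 with aldosterone. For *Serpina3m*, *Hif3a* and *Zbtb16* were nearest, at 0.55 and 0.67, at 0.137 and 0.300 CPM with vehicle, and *Dpep1*, *Fam107a* and *Gm45397* followed at 1.30 to 1.33. For *Serpina3f*, *Hrct1*, *Thrb*, *Ccdc27* and *Ccdc3* were among the nearest, at 0.29 to 0.38. The nearest genes to *Serpina3g* and *Serpina3h*, *5530601H04Rik* and *2810013P06Rik*, differed little between treatments, with log2 differences of 0.16 and -0.08. No gene was in the first 5 of 2 members of the cluster, and the 12 libraries share their treatments, so the distances are a description.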

How the data were processed

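For every pairing of the treatments, the authors deposited signal values, that is, each library's gene counts after division by its size factor (normalized counts). The fold changes and p-values of their own comparisons stand beside them and were not used. Per the labels, the processing notes name HISAT2 2.0.5, featureCounts 1.5.0-p3 and the build mm39, while the methods name mm9. Of 698 genes on chromosome 12 matched by identifier to NCBIM37 (mm9), 0 had the same start, so positions are given as the tables hold them, in mm39 per the submitters' processing notes. The labels describe both stranded and unstranded library preparation, and the strand setting used in counting is not given in the sources used here. In the columns used to recover reads, 100% of values were whole multiples of a step within 0.01, which gave the reads behind each value. The 2 columns whose step was too close to 1 were read from the other table of the same library.

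For each pair of treatments, limma 3.58.1 (R 4.3.3) with a trend in the prior variance was run on log2(normalized count + 1) for every gene of a table, two-sided, with treatment as the only factor and Benjamini-Hochberg adjustment over the table. The plan named edgeR for raw counts, and the tables hold normalized ones. The log2 differences of low genes are understated on this scale. Calls required an adjusted p of 0.05 or less and a log2 fold change of at least 1 in size. Among the members, a test is given only for those with reads in every library. CPM used the recovered reads with TMM factors of edgeR 4.0.16.

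The labels give each library a sample number and a biological replicate number and do not say which is the mouse. Deviations from group means correlated where treatments shared the sample number (24 pairs, r from 0.135 to 0.291), so the sample number also entered the fit as a replicate block. No 2 libraries of a group agreed within sampling noise (lowest chi-square per degree of freedom 3.54). This value was 3.54 to 7.62 for libraries that share a sample number and 12.1 to 20.7 for those that do not. In each group the libraries thus fell into 2 pairs by sample number, while the SDs and the main fits take them as 4 separate libraries. Alternatives were that block, one on the biological replicate number, edgeR, DESeq2 1.42.0, TMM scaling, a pseudocount of 0.5, a minimum mean of 10 and leaving out each library. The interaction of sample number and treatment was added after the data were seen. On simulated data each tool was checked, and limma made more false calls than edgeR or DESeq2.

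The members and the gene lists were chosen with earlier results of these data known. Named genes are the members, the 5 nearest expressed genes on each side that are no serpins, the other *Serpina* genes of chromosome 12, the 5 genes most like each member with a mean of at least 10, and, in each list, those called or with the largest means. *Serpinb1a*, *Socs3*, *Il6* and *Nr3c2* were named after their values were seen. So were *Pdgfra*, *Kdr*, *Cdh5*, *Pecam1*, *Plin1* and *Adipoq* among the marker genes. A gene in the serpin list and a gene among those most like *Serpina3f* are not reported here.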

Additional observations from a re-analysis of the deposited data

How the results depend on the processing

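Among the 6 members with reads in every library, the counts called were 3, 3 and 0. They were the same with the sample number or the biological replicate number as a replicate block, and the block changed no call of a member. They were also the same with edgeR, DESeq2, TMM scaling, a pseudocount of 0.5 and a minimum mean of 10. For spironolactone against vehicle, DESeq2 gave an adjusted p only for *Serpina3n*, so its 0 does not cover the other members. In that comparison edgeR and the minimum mean left out *Serpina3f* and *Serpina3i*. With a library left out, 2 to 3 members were called against vehicle and 2 to 3 against spironolactone, and 0 for spironolactone against vehicle. *Serpina3c* and *Serpina3n* were called in every one of these fits of aldosterone, and *Serpina3f* was the member that lost its call. Its log2 difference lay between 1.47 and 2.02 against vehicle and between 1.08 and 1.498 against spironolactone.

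Values near 0 changed sign without passing a threshold. For aldosterone against vehicle, *Serpina3h* was 0.011 with edgeR and 0.010 with DESeq2, *Serpina3i* was -0.064 with a pseudocount of 0.5, and with a library left out they ranged from -0.11 to 0.12 and from -0.44 to 0.39. Against spironolactone, *Serpina3h* ranged from -0.13 to 0.11. For spironolactone against vehicle, *Serpina3h* ranged from -0.086 to 0.12 and *Serpina3c* from -0.025 to 0.19. *Serpina3i* fell below the minimum mean of 10 and the edgeR filter, so those fits give no value for it. The share of *Serpina3n* counted as reads with no length was 55.3% with vehicle and 83.4% with aldosterone, and the 5 genes most like each member were the same 5 without TMM factors. Genes at 3 reads or fewer in a library lie at the limit of this depth.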
